A study of Homo sapiens with 22 samples.

Results

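The replication-dependent histone genes encode the core histones H2A, H2B, H3 and H4 and the linker histone H1. They were chosen by symbol: HIST, a cluster number from 1 to 4, H, the class and a gene letter or digit, without symbols that carry PS. Of the 57820 genes in total RNA, 76 matched, with 6 in class H1, 17 in H2A, 23 in H2B, 15 in H3 and 15 in H4. Of the 58870 genes in poly(A) RNA, 75 matched, and HIST2H2BC was not analysed there. GENCODE 29 annotates 6 of the 76 as pseudogenes. On GRCh38, 55 members lie on chromosome 6, 20 on chromosome 1 and 1 on chromosome 12.

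The study measured RNA in LS180 and HCT116, both established human colorectal cancer cell lines, in 22 libraries. In the siRNA experiment, LS180 cells were transfected with siSTAU1, which targets the double-stranded RNA binding protein Staufen1, or with the control siRNA siCTRL, for 72 h and again for 72 h (n = 2 libraries each, poly(A)-selected RNA). In the actinomycin D experiment, HCT116 and LS180 cells received 5 µg/ml actinomycin D, an inhibitor of transcription, and were sampled at 0, 2 and 4 h (n = 3 libraries for each line and time, total RNA). Each cell line stands for itself only. No label ties the libraries of a group to separate cultures, and the p-values therefore reflect how much these libraries vary, which may be technical.

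Histone genes of this kind are transcribed mainly in S phase, when DNA replication calls for new nucleosomes. Their mRNAs are the main animal mRNAs that end without a poly(A) tail: they end after a conserved stem-loop, which binds the stem-loop binding protein SLBP in processing, translation and decay. The mRNAs are degraded rapidly when DNA replication stops, and some of the genes can also give polyadenylated transcripts from a poly(A) signal further downstream. Because many copies within a class are nearly identical, reads can be shared between them, so class sums are given beside single genes.

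The stem-loop is shown first, since it is the element by which these mRNAs differ from other mRNAs. The letters GGCNCTTNTNAGNGCC, on the transcript strand, were found in a GENCODE 29 transcript (GRCh38) of 35 of the 76 members, and in 48 of 57133 gene names overall (0.084%). The loop letters were those shared by all hits with a paired stem, so the pattern was not fixed in advance. Members make up all but 13 of the 48 gene names. Of the 41 members without the letters, 35 have only transcripts whose lengths are multiples of 3, as the length of a coding sequence is. Whether these transcripts end at the stop codon, before a stem-loop, was not checked. Some are longer than others of their class: HIST1H2BA has 516 bases and HIST1H2BB 381. The letters took 6 forms. Each form is printed below from 1 or 2 of its members, with 5 bases on either side, and capitals mark the 16 bases of the stem-loop.
HIST1H2AC: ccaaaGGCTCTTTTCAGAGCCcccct
HIST3H2A: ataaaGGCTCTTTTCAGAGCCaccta
HIST1H2AG: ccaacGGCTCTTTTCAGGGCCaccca
HIST1H2BD: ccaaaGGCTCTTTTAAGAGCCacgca
HIST1H3E: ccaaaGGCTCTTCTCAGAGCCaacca
HIST1H4B: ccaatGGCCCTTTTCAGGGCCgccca
HIST1H4J: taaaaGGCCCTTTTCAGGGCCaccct
HIST2H4A: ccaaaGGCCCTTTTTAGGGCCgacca
The core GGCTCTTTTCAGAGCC occurred in 18 members of the H2A, H2B and H3 classes. The cores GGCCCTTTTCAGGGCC, in 5 members, and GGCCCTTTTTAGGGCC, in 3 members, occurred in H4 genes and in no member of the other classes. A poly(A) signal, AATAAA or ATTAAA on the transcript strand, followed the stem-loop in a transcript of 23 members, HIST1H2AC and HIST3H2A among them. The signal was searched anywhere after the stem-loop, not only near the end of the transcript. The annotated transcript of HIST1H4C holds no match for the stem-loop letters. It is 435 bases long, against 312 for that of HIST1H4A, another H4 gene.

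The promoters, 250 bases before to 50 after the start in RefSeq (GRCh38.p14), were matched for 65 members. The octamer ATTTGCAT, searched on both strands, is the letters to which POU2F1 (Oct-1) binds in histone H2B promoters. It was found in 14 of 18 H2B and 11 of 16 H2A promoters, against 1 of 12 in H3, 0 of 13 in H4 and 0 of 6 in H1, and in 1.8% of all 27305 promoters. The H3 promoter with the octamer, that of HIST1H3D, has the same coordinates as the promoter of HIST1H2AD, which is also counted in H2A. Several H2A genes lie beside an H2B gene on the other strand with overlapping promoter windows, such as HIST1H2AC and HIST1H2BC. The same octamer can then be counted in both classes, so the H2A and H2B shares are not independent. CCAAT on either strand was in 84.6% of member promoters against 35.7% of all, and all matched members outside H4 carried it, whereas 3 of 13 H4 promoters did. TATAAA on either strand was in 66.2% of member promoters and in 12% of all. The promoters of HIST1H2BJ and HIST1H2BK are printed because these genes fell most and least among the well-expressed H2B genes at 4 h of actinomycin D, below. They were chosen after their values were seen. Both are the 250 bases before the start, on the minus strand, and capitals mark ATTTGCAT and TATAAA on either strand.
HIST1H2BJ, chr6:27132796-27133045: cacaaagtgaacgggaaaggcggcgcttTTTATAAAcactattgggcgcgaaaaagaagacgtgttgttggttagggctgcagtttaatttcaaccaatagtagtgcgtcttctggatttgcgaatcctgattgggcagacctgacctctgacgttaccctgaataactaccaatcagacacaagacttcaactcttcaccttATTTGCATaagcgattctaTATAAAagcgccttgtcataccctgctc
HIST1H2BK, chr6:27146859-27147108: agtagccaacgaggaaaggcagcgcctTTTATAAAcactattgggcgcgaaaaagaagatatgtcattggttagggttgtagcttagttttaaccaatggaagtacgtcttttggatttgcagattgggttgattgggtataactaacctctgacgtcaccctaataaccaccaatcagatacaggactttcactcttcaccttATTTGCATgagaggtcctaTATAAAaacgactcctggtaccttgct
In HIST1H2BJ the octamer begins 47 bases and the last TATAAA 28 bases before the start, and in HIST1H2BK they begin 46 and 27 bases before it.

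In units of 1000000 counts, libraries held 23.73 to 26.66 in the poly(A) experiment and 47.84 to 61.42 in the total RNA experiment. The members took 0.005 to 0.009% of the counts of a poly(A) library. In total RNA they took 1.154 to 1.406% in HCT116 and 1.513 to 1.602% in LS180 at 0 h. Levels below are CPM (counts scaled to 1000000 per library) after TMM scaling, and TPM where genes are compared with each other. After actinomycin D all values are relative to the transcripts that remain, and in bulk RNA fewer cells with a transcript cannot be told apart from less of it per cell. The HCT116 libraries numbered 1 stand apart: of the HCT116 libraries, number 1 had the lowest summed histone level at 0 h and the highest at 2 and 4 h. The LS180 library numbered 1 had the highest sum at 2 and at 4 h. Summed colorectal epithelial markers were 3263 to 3907 CPM in HCT116 and 3631 to 4795 CPM in LS180 total RNA, and 10840 to 11643 CPM in the poly(A) libraries. In HCT116, CDX1 and CEACAM5 had no count at any time, and LGALS4 had none at 2 h. In LS180 all 10 markers were detected. Of 11 markers of fibroblasts, blood, endothelium and liver, the summed level was 2.4 to 3.65 CPM in HCT116 and 1.41 to 2.24 CPM in LS180, with COL1A2 and CD3E at 0 in both lines at 0 h. It was 15.8 to 18.9 CPM over 12 markers in the poly(A) libraries, with COL1A2, CD3E and ALB at 0.

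At 0 h the leading members per length were H4, H2A and H1 genes. HIST1H4J averaged 870 ± 33.7 TPM in HCT116 and 1283 ± 90.3 TPM in LS180 (SD, n = 3 each), the highest level of any member in both lines. HIST2H2AA4 averaged 848 ± 7.28 TPM in HCT116 and 816 ± 62.2 TPM in LS180. HIST2H4A averaged 707 ± 44.6 TPM in HCT116 and 748 ± 62.1 TPM in LS180. These last 2 genes have near-identical copies, so their levels are uncertain. HIST1H4J may also share reads. Its promoter window is nearly identical to that of HIST1H4K, and the expected counts of both are not whole numbers. HIST1H1C, a somatic linker histone, averaged 615 ± 12.3 TPM in HCT116 and 868 ± 94.0 TPM in LS180. HIST1H2BD led the H2B class with 531 ± 30.1 TPM in HCT116 and 540 ± 61.5 TPM in LS180. HIST1H3H led the H3 class with 481 ± 45.5 TPM in HCT116 and 655 ± 47.0 TPM in LS180, and HIST1H3B followed within the spread of the libraries at 454 ± 29 TPM in HCT116 and 638 ± 53.1 TPM in LS180. H4 genes made up 27.2% of the summed histone TPM in HCT116 and 28.6% in LS180, and H1 genes 8.38% and 10.2% in these lines. At the other end, HIST1H4F and HIST1H4G had no count in any total RNA library, and 24 members averaged under 5 CPM in both lines at 0 h.

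**Figure D1:**
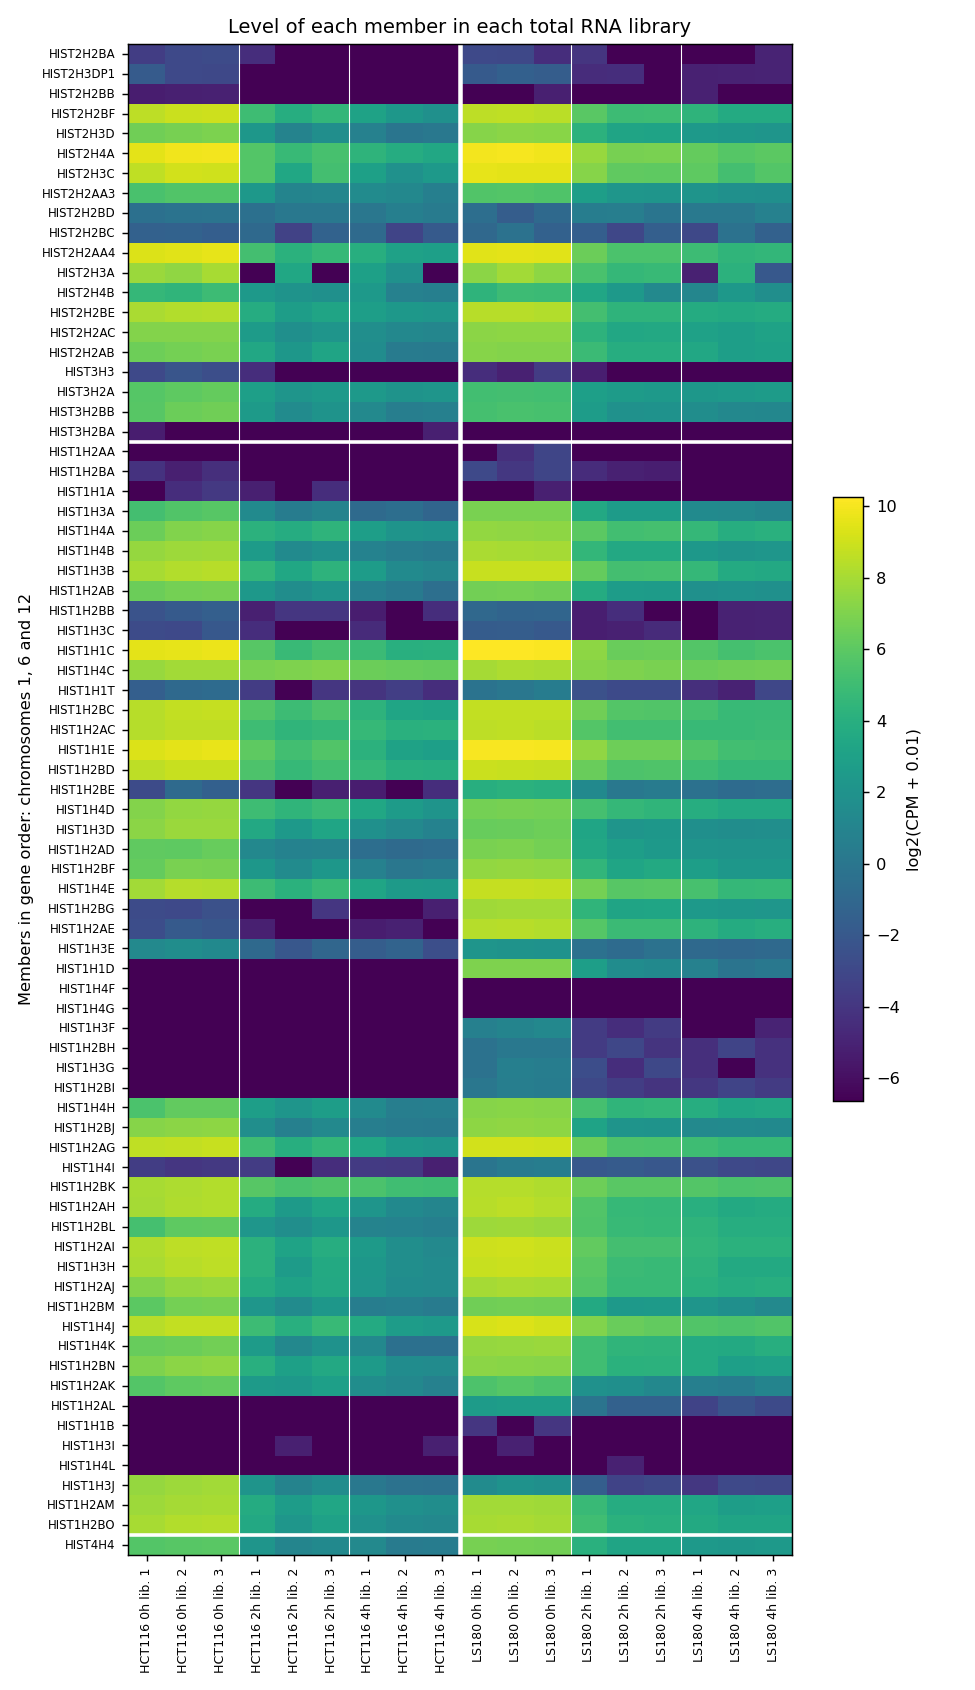
The 76 members (rows, in gene order) in the 18 total RNA libraries (columns, HCT116 left of LS180, each at 0, 2 and 4 h), as log2(CPM + 0.01). Most rows are bright at 0 h and darker at 2 and 4 h in both lines, HIST1H4C stays bright at 4 h, and a run of rows is dark in HCT116 and partly bright in LS180.

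Which histone transcripts remain after transcription is blocked was read from the actinomycin D series. In HCT116, 54 of the 64 members that passed the expression filter were lower at 2 h than at 0 h (edgeR quasi-likelihood test, adjusted p under 0.05), while 17.1% of all 17256 genes tested were lower and 13.8% higher. The median change was -3.92 on the log2 scale for the members and 0.009 for all genes. No member was higher at 2 h (0 at an unadjusted p under 0.05 and 0 by DESeq2). At 4 h against 0 h in HCT116, 54 members were lower and 1 higher, with 23.7% of all genes lower and 26.2% higher, and medians of -5.34 for the members and 0.025 for all genes. Of the 64 members, 6 had at most 3 counts in both HCT116 groups at each of these times, and without them the medians were -4.06 at 2 h and -5.62 at 4 h. In LS180, 62 of the 64 members were lower and 1 higher at 2 h, with 23.9% of all genes lower and 13.5% higher and medians of -3.24 and -0.02. At 4 h in LS180 the count was again 62 lower and 1 higher, with 31.1% of all genes lower and 26.6% higher, and medians of -4.33 for the members and 0 for all genes.

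The one member that was higher was HIST2H2BD, a pseudogene that overlaps HIST2H2BC on the opposite strand. Its level was 1.14, 1.11 and 1.74 CPM at 4 h in LS180, against 0.679, 0.311 and 0.539 CPM at 0 h (log2 change 1.37 ± 0.277 SE, edgeR adjusted p = 0.000319). In HCT116 it was 1.04, 1.58 and 1.28 CPM at 4 h against 0.733, 0.838 and 0.887 CPM at 0 h (0.66, edgeR adjusted p = 0.0395). The HCT116 call was lost when any library of 0 h, or library 2 or 3 of 4 h, was left out, with 0 members higher in each case, and adjusted p ran to 0.209 over these.

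The summed level of all members shows the size of the fall. In HCT116 it was 10516, 12513 and 13265 CPM at 0 h, 1021, 608 and 844 CPM at 2 h, and 461, 309 and 285 CPM at 4 h. In LS180 it was 15336, 15736 and 14825 CPM at 0 h, 2681, 1497 and 1477 CPM at 2 h, and 1008, 801 and 841 CPM at 4 h. In neither line did the times overlap, and the HCT116 values lay below the LS180 values at each time. Of the 0 h level, 6.81% was left at 2 h and 2.91% at 4 h in HCT116, against 12.3% and 5.77% in LS180.

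**Figure D2:**
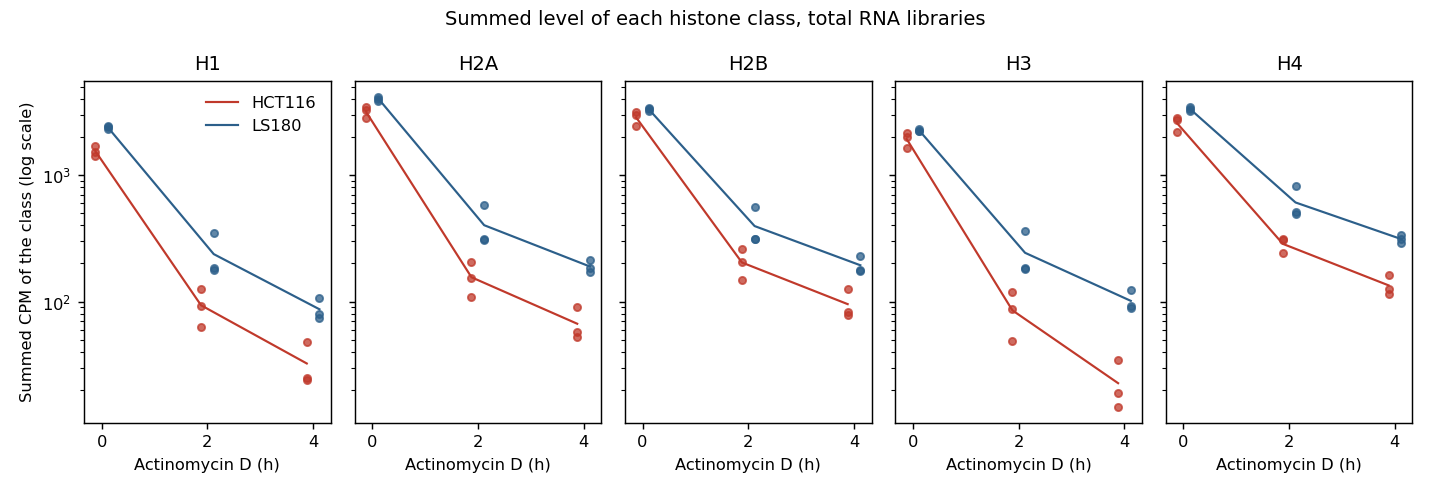
Summed CPM of the members of each class (log axis) at 0, 2 and 4 h of actinomycin D in HCT116 (red, left) and LS180 (blue, right). Points are libraries and lines join the means (n = 3 each). Every class falls at each step in both lines, H4 has the shallowest fall, and the H3 sum in HCT116 reaches 34.5, 18.8 and 14.6 CPM at 4 h.

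All 5 classes fell, by different amounts. Among linker histones, HIST1H1C was 30, 16.5 and 16.6 CPM at 4 h in HCT116 against 761, 788 and 869 CPM at 0 h, and 53.6, 39 and 44.8 CPM at 4 h in LS180 against 1226, 1189 and 1127 CPM at 0 h. The log2 change was -5.26 in HCT116 and -4.69 in LS180 (edgeR adjusted p = 9.13e-11 and 1.47e-10). The H1 sum kept 2.09% of its 0 h level in HCT116 and 3.66% in LS180. HIST1H1D, also a somatic H1, had no count in any HCT116 library, and in LS180 it was 1.72, 0.887 and 1.09 CPM at 4 h against 128, 125 and 130 CPM at 0 h. That change, -6.68 with edgeR adjusted p = 2.17e-09, was the largest in LS180 among members of at least 5 CPM.

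For H2A, 15 of 16 members tested were lower at 4 h in HCT116 and 16 of 16 in LS180, and the sum kept 2.09% in HCT116 and 4.72% in LS180. Some, but not all, annotated transcripts of HIST1H2AC run past the stem-loop to a poly(A) signal. HIST1H2AC was 25.3, 16.7 and 17.5 CPM at 4 h in HCT116 against 326, 373 and 381 CPM at 0 h. In LS180 it was 27.1, 26.6 and 29.1 CPM at 4 h against 375, 402 and 369 CPM at 0 h. The groups were well apart in both lines (log2 change -4.18 and -3.79, edgeR adjusted p = 1.83e-12 in HCT116 and 2.24e-12 in LS180). HIST3H2A, which lies on chromosome 1 apart from the large clusters, was 5.64, 4.13 and 4.58 CPM at 4 h in HCT116 against 56.4, 67.9 and 78 CPM at 0 h. In LS180 it was 4.88, 5.67 and 6.29 CPM at 4 h against 34.8, 36.4 and 34.6 CPM at 0 h. It kept 7.14% in HCT116 and 15.9% in LS180. The pair HIST2H2AA3 and HIST2H2AA4, read as a sum because the copies share reads and the symbols change places between the annotations, kept 1.59% in HCT116 and 3.63% in LS180.

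The H2B class held members at both ends of the range, and its sum kept 3.34% in HCT116 and 5.85% in LS180. HIST1H2BJ was 1.5, 1.31 and 1.26 CPM at 4 h in HCT116 against 147, 159 and 170 CPM at 0 h, and 2.52, 2.74 and 2.63 CPM at 4 h in LS180 against 165, 177 and 166 CPM at 0 h. The log2 change was -6.86 in HCT116 and -6.01 in LS180 (edgeR adjusted p = 1.41e-13 and 1.19e-13). HIST1H2BK lies in the same block of 5 genes, at chr6:27146418-27146798 on the minus strand (GENCODE 29, GRCh38). It was 44.3, 33 and 32.9 CPM at 4 h in HCT116 against 263, 296 and 318 CPM at 0 h. In LS180 it was 53.2, 45.4 and 46.6 CPM at 4 h against 328, 329 and 306 CPM at 0 h (log2 change -2.99 in HCT116 and -2.73 in LS180, edgeR adjusted p = 1.56e-11 and 2.13e-11). HIST1H2BJ thus kept 0.86% and HIST1H2BK 12.6% in HCT116, and 1.56% and 15.1% in LS180. Both promoters carry the octamer and the TATA letters at nearly the same distance from the start. Any part of the promoters in these shares was not tested.

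H3 was the class with the lowest share left in HCT116. Its sum was 34.5, 18.8 and 14.6 CPM at 4 h in HCT116 against 1641, 2008 and 2147 CPM at 0 h, and 124, 91.7 and 88.2 CPM at 4 h in LS180 against 2220, 2310 and 2217 CPM at 0 h. That is 1.17% of the 0 h level in HCT116 and 4.5% in LS180. HIST1H3J had the largest log2 change in HCT116, with 1.07, 0.811 and 0.764 CPM at 4 h against 192, 224 and 245 CPM at 0 h (-7.95, edgeR adjusted p = 9.35e-15). It overlaps HIST1H2AM on the same strand, so its reads are uncertain. The copies HIST2H3A and HIST2H3C split their reads unevenly, with HIST2H3A at 0, 10.6 and 0 CPM in HCT116 at 2 h. Their sum was 15.8, 7.55 and 5.4 CPM at 4 h in HCT116 against 611, 734 and 787 CPM at 0 h, and 67.5, 55.1 and 53.2 CPM at 4 h in LS180 against 940, 1005 and 925 CPM at 0 h.

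H4 kept the largest share, 5.23% in HCT116 and 9.32% in LS180, and HIST1H4C carried much of it. HIST1H4C (chr6:26103876-26104310, plus strand, GENCODE 29, GRCh38) was 199, 247 and 246 CPM at 0 h, 116, 129 and 142 CPM at 2 h, and 86.8, 82.1 and 78.3 CPM at 4 h in HCT116. In LS180 it was 258, 291 and 277 CPM at 0 h, 149, 129 and 116 CPM at 2 h, and 88.7, 96.9 and 103 CPM at 4 h. It fell at each step without overlap, by 0.84 at 2 h and by 1.49 at 4 h on the log2 scale in HCT116 (edgeR adjusted p = 2.29e-06 and 4.95e-10), and by 1.07 and 1.52 in LS180 (5.24e-08 and 1.87e-10). It kept 35.7% of its 0 h level in HCT116 and 34.9% in LS180, the highest share in both lines among the 46 members described below, which averaged at least 5 CPM at 0 h.

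Per length, HIST1H4C made up 3.11% of the summed histone TPM at 0 h, 23.7% at 2 h and 36.4% at 4 h in HCT116. In LS180 its part was 2.9% at 0 h, 11% at 2 h and 16.5% at 4 h. Without it, a sum chosen after its values were seen, H4 kept 2.23% in HCT116 and 7.03% in LS180. Other H4 genes showed the range of the class. HIST1H4B fell to 1.79, 1.42 and 1.17 CPM at 4 h in HCT116, against 188, 220 and 228 CPM at 0 h (log2 change -7.17, edgeR adjusted p = 1.02e-12). In LS180 it fell to 5.22, 4.34 and 4.68 CPM, against 275, 268 and 253 CPM (-5.80, edgeR adjusted p = 1.66e-12). It thus kept the lowest share of the 46 members described next in HCT116 (0.694%) and 1.79% in LS180.

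The spread between members was described over the 46 that are not pseudogenes and averaged at least 5 CPM at 0 h in both lines. All 46 were lower at 2 and at 4 h in both lines by edgeR. For HIST2H3A, which shares reads with HIST2H3C, the LS180 call at 2 h was lost in 10 of 16 alternatives. The share left at 4 h ran from 0.694 to 35.7% in HCT116, with a median of 1.79% and quartiles of 1.25 and 3.08%. In LS180 it ran from 1.56 to 34.9%, with a median of 4.89% and quartiles of 3.61 and 7.16%. HIST1H4C, HIST1H2BK, HIST3H2A and the copy HIST2H4B held the 4 highest shares in both lines, and HIST1H2BJ and HIST1H4B the 2 lowest. HIST2H4B shares reads with HIST2H4A, so its own share is uncertain. The sum of that pair kept 1.96% in HCT116 and 6.77% in LS180. Across these 46 members the changes in HCT116 and in LS180, which share no library, had Pearson r = 0.82 and Spearman rho = 0.75 at 2 h, and 0.86 and 0.74 at 4 h.

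**Figure D3:**
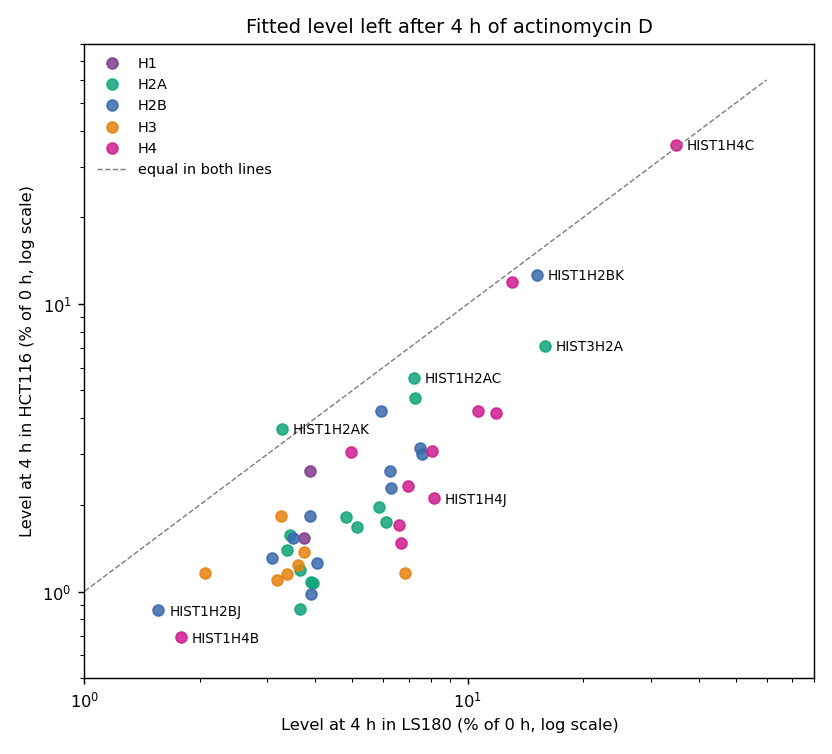
Share of the 0 h level left at 4 h of actinomycin D in HCT116 (y axis, %) against LS180 (x axis, %) for the 46 members of at least 5 CPM at 0 h in both lines, both axes logarithmic, colour by class, dashed line where the lines are equal. 44 of 46 points lie below the line, and HIST1H4C stands alone near 35.7% in HCT116 and 34.9% in LS180.

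Shares left were also set beside sequence features that played no part in choosing the members. The 17 members with a poly(A) signal after the stem-loop kept a median of 2.29% in HCT116 and 6.3% in LS180. The 7 with a stem-loop and no such signal kept 2.11% and 6.27%, and the 22 whose transcripts lack the letters 1.53% and 3.81%, in these lines. H2A and H2B genes with the octamer (16) kept a median of 1.62% in HCT116 and 3.96% in LS180, and those without it (9) 3.01% and 6.27%. In each of these sets the ranges overlap, and as the annotation may often end at the stop codon these medians are descriptions only.

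Whether the fall differed between the lines was tested as the difference between the changes, HCT116 minus LS180. At 2 h, 15 of the 64 members had a lower change in HCT116 and 0 a higher one (2 higher at an unadjusted p under 0.05, 0 by DESeq2), against 0.394% of all genes lower and 5.24% higher. The count of 15 depended on single libraries. It was 9 without the LS180 0 h library 1, 7 without the LS180 0 h library 3, 6 without the LS180 2 h library 1, 7 without the HCT116 0 h library 3 and 23 without the HCT116 2 h library 1. At 4 h, 28 members had a lower change in HCT116 and 1 a higher one, against 1.33% and 12.3% of all genes, and leaving out single libraries gave 22 to 35 lower. The median difference was -0.94 at 2 h and -1.21 at 4 h for the members, against 0.046 and 0.06 for all genes. By class, 10 of 16 H2A, 6 of 19 H2B, 4 of 13 H3, 8 of 12 H4 and 0 of 4 H1 members were lower at 4 h. The members tested include some with no count in HCT116, such as HIST1H1D, whose fall could not be followed there. HIST1H1E missed the threshold and passed it in 10 of 24 alternatives. The class sums differed at 4 h by -0.81 for H1, -1.17 for H2A, -0.8 for H2B, -1.95 for H3 and -0.84 for H4.

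At 2 h the largest differences among members past the threshold and averaging at least 5 CPM were -1.69 for HIST2H4A, -1.64 for HIST1H2BO and -1.59 for HIST1H4B (edgeR adjusted p = 0.00347, 0.00883 and 0.00558). HIST1H2BO was 11.9, 4.6 and 8.25 CPM at 2 h in HCT116 against 260, 318 and 329 CPM at 0 h, and 34.2, 17.7 and 16.5 CPM at 2 h in LS180 against 270, 281 and 256 CPM at 0 h. Its levels at 0 h overlapped between the lines and those at 2 h did not. HIST2H4A with its copy HIST2H4B summed to 59.2, 31.1 and 44.4 CPM at 2 h in HCT116 against 800, 965 and 1024 CPM at 0 h, and to 212, 117 and 118 CPM at 2 h in LS180 against 1016, 1069 and 965 CPM at 0 h.

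At 4 h the largest among such members were -2.56 for HIST2H3C, -2.19 for HIST1H4K and -2.07 for HIST1H2AD (edgeR adjusted p = 0.00454, 0.00135 and 7.88e-05). HIST1H4K was 2.33, 0.732 and 0.746 CPM at 4 h in HCT116 against 80.3, 86.6 and 101 CPM at 0 h, and 12.7, 12.5 and 15.6 CPM at 4 h in LS180 against 194, 204 and 212 CPM at 0 h. HIST1H2AD was 0.687, 0.574 and 0.622 CPM at 4 h in HCT116 against 69.1, 67.5 and 82 CPM at 0 h, and 4.23, 4.03 and 4.16 CPM at 4 h in LS180 against 115, 120 and 106 CPM at 0 h. Within a line neither gene's values at 4 h overlapped those at 0 h, and at 4 h every HCT116 value lay below every LS180 value. HIST1H2AD overlaps another gene on its strand, and HIST1H4K may share reads with HIST1H4J. For HIST2H3C the copy pair is the safer value, -2.18 on the sum with HIST2H3A.

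For some well-expressed members the difference missed the threshold. HIST1H4C had 0.22 ± 0.138 (SE) at 2 h and 0.03 ± 0.139 at 4 h (edgeR adjusted p = 0.565 and 0.961), and over the alternatives the 4 h value ran from -0.18 to 0.19. HIST1H2BK had -0.26 ± 0.207 at 4 h (edgeR adjusted p = 0.532) and HIST1H2AK 0.17 ± 0.295 (0.837). The one member with a higher change, HIST1H4I at 2.75 (edgeR adjusted p = 0.0213), was at most 0.0748 CPM in HCT116, so that its fall could not be followed there, and its call was lost in 4 of 22 alternatives.

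The lines also differed before treatment. At 0 h, 7 of the 64 members were higher and 24 lower in HCT116 than in LS180, against 33.7% and 42.6% of all genes, so that neither share of the members (10.9% and 37.5%) exceeds the background. The median difference was -0.48 for the members and -0.10 for all genes. The summed level was 10516 to 13265 CPM in HCT116 and 14825 to 15736 CPM in LS180, a log2 ratio of -0.34 that was -0.07 when libraries were scaled to ribosomal protein genes. The H2B and H3 sums, at -0.21 and -0.22, turned to 0.06 and 0.05 under that scaling. The count of 7 fell to 4 without the HCT116 0 h library 3.

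The 3 largest log2 ratios at 0 h among members averaging at least 5 CPM over both lines, all lower in HCT116, sat in 1 stretch of chromosome 6. That level limit leaves out HIST1H2AL, which lies outside the stretch, in the block from HIST1H2BL to HIST1H2BO. HIST1H2AL had no count in HCT116 and was 6.13, 6.74 and 6.7 CPM in LS180. Its log2 ratio of -11.5 was larger in size than those of HIST1H2AE and HIST1H2BG. The largest block of the gene family on chromosome 6, HIST1H1A to HIST1H4H, holds 32 members in 269 kb (GENCODE 29). Within it, 10 neighbours in a row from HIST1H2BG to HIST1H2BI were under 5 CPM in HCT116, and the longest such run in LS180 was 6, from HIST1H4F to HIST1H2BI. Of these 10, all but HIST1H2BG, HIST1H2AE and HIST1H1D were also under 5 CPM in LS180. HIST1H3E, within the run, was detected in both lines, at 2.44, 3.07 and 2.62 CPM in HCT116 and 4.45, 4.04 and 3.98 CPM in LS180. HIST1H2AE was 0.15, 0.267 and 0.217 CPM in HCT116 and 331, 347 and 314 CPM in LS180 (log2 ratio -10.62, edgeR adjusted p = 3.97e-16). HIST1H2BG was 0.135, 0.125 and 0.177 CPM in HCT116 and 235, 238 and 241 CPM in LS180 (-10.67, 2.34e-15 by edgeR). HIST1H1D had no count in HCT116 and 128, 125 and 130 CPM in LS180, at least 7382-fold lower in HCT116 when set against 3 counts over the group.

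In the same run, HIST1H3F, HIST1H3G, HIST1H2BH and HIST1H2BI had no count in HCT116 and were at least 113-, 73.5-, 57.6- and 75.5-fold lower there by the same floor, from low levels in LS180. Members on both sides of the run were well expressed in HCT116: HIST1H4E before it was 241, 335 and 324 CPM in HCT116 and 437, 443 and 423 CPM in LS180, and HIST1H4H after it 44.2, 71.8 and 73.8 CPM in HCT116 and 148, 151 and 143 CPM in LS180. The low levels in HCT116 were not confined to the run. HIST1H2BE, outside it in the same block, was 0.135, 0.57 and 0.355 CPM in HCT116 and 15.4, 17.7 and 16.5 CPM in LS180. Over the alternatives its log2 ratio ran from -6.14 to -5.13. The values of the run stand beside a general difference of these lines: of 10 colorectal epithelial markers, 7 were lower in HCT116 and 3 higher at 0 h, against 42.6% and 33.7% of all genes. VIL1, LGALS4, CDH1 and CEACAM5 had the smallest p of these and were lower (edgeR adjusted p = 6.06e-22, 4.47e-18, 1.80e-17 and 3.42e-16). The part of this difference in the result was not tested.

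**Figure D4:**
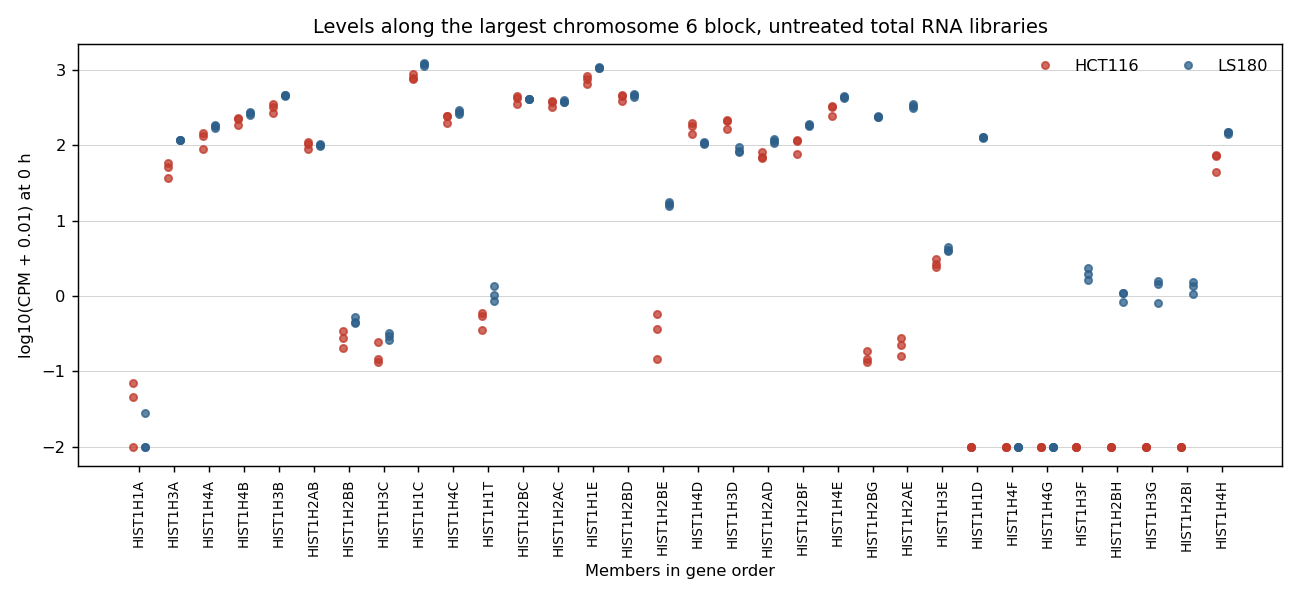
Level of the 32 members of the largest block on chromosome 6, in gene order, at 0 h in HCT116 and LS180, as log10(CPM + 0.01), 3 libraries each. The 10 members from HIST1H2BG to HIST1H2BI lie under 5 CPM in HCT116, and HIST1H2AE, HIST1H2BG and HIST1H1D stand above 100 CPM in LS180.

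The 7 members higher in HCT116 were HIST1H3J, HIST1H3D, HIST3H2BB, HIST3H2A, HIST1H4D, HIST1H2AK and HIST2H2BD. Over 16 alternatives the calls of HIST2H2BD, HIST1H2AK and HIST1H4D were lost in 5, 4 and 1 of them, and those of the other 4 members in none. HIST1H3J was 192, 224 and 245 CPM in HCT116 and 2.88, 3.88 and 3.37 CPM in LS180 (log2 ratio 6.03, edgeR adjusted p = 2.46e-15), with the overlap named above. HIST1H3D was 162, 211 and 215 CPM in HCT116 and 82.1, 84.9 and 93.6 CPM in LS180 (1.17, edgeR adjusted p = 9.79e-05), and it overlaps another gene on its strand. The divergent neighbours HIST3H2A and HIST3H2BB on chromosome 1 were both higher. HIST3H2A was 56.4, 67.9 and 78 CPM in HCT116 and 34.8, 36.4 and 34.6 CPM in LS180 (0.93, edgeR adjusted p = 1.34e-05). HIST3H2BB was 59.2, 88.4 and 97.4 CPM in HCT116 and 38.6, 42.7 and 39.7 CPM in LS180 (1.02, edgeR adjusted p = 0.0002). In all 4 genes every HCT116 library lay above every LS180 library.

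In the siRNA experiment the target was checked first: STAU1 was 9.7 and 9.17 CPM in siSTAU1 and 144 and 141 CPM in siCTRL libraries (log2 change -3.92, edgeR adjusted p = 2.15e-12). Poly(A) selection left little histone RNA. The members summed to 74.6 and 87.2 CPM in siSTAU1 and 76.5 and 52.9 CPM in siCTRL libraries, which overlap, and 19 of 75 members had no count at all. Of the 29 members that passed the filter, 5 were higher and 0 lower with siSTAU1 by edgeR (1 lower at an unadjusted p under 0.05, 0 by DESeq2), against 23% of all 14073 genes higher and 23% lower. The share of members higher, 17.2%, is below that background, and the median change was 0.20.

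Of the 5 members, 3 are H2A genes. HIST3H2A was 11.4 and 10.3 CPM in siSTAU1 and 6.68 and 6.48 CPM in siCTRL libraries (log2 change 0.72 ± 0.107 SE, edgeR adjusted p = 0.00022). HIST1H2AC was 9.18 and 9.85 CPM with siSTAU1 and 6.65 and 5.72 CPM with siCTRL (0.62 ± 0.117, 0.00113 by edgeR). HIST1H2BK, an H2B gene, was 7.58 and 6.96 CPM with siSTAU1 and 4.84 and 5.01 CPM with siCTRL (0.56 ± 0.125, edgeR adjusted p = 0.0032). In these 3 genes both siSTAU1 libraries lay above both siCTRL libraries.

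HIST1H1C was 11.4 and 13.6 CPM with siSTAU1 and 10.3 and 8.1 CPM with siCTRL (0.43, edgeR adjusted p = 0.0144). That call was lost without siCTRL library 2 (0.27, edgeR adjusted p = 0.174) or siSTAU1 library 2 (0.30, 0.0839). The fifth, HIST2H2AA3, had 65 and 56 counts with siSTAU1 and 0 with siCTRL, but its near-identical copy HIST2H2AA4 was 3.49 and 4.79 CPM with siSTAU1 and 4.54 and 2.13 CPM with siCTRL. The pair summed to 6.09 and 7.04 CPM with siSTAU1 and 4.54 and 2.13 CPM with siCTRL. The H2A sum was 32.1 and 33.5 CPM with siSTAU1 and 25.8 and 18.3 CPM with siCTRL, without overlap, and the sums of the other 4 classes overlapped between the groups. HIST1H1E, at 0.561 and 0.885 CPM with siSTAU1 and 1.99 and 1.0 CPM with siCTRL, missed the threshold (-1.06, edgeR adjusted p = 0.0514) and passed it without siCTRL library 2 or siSTAU1 library 2.

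**Figure D5:**
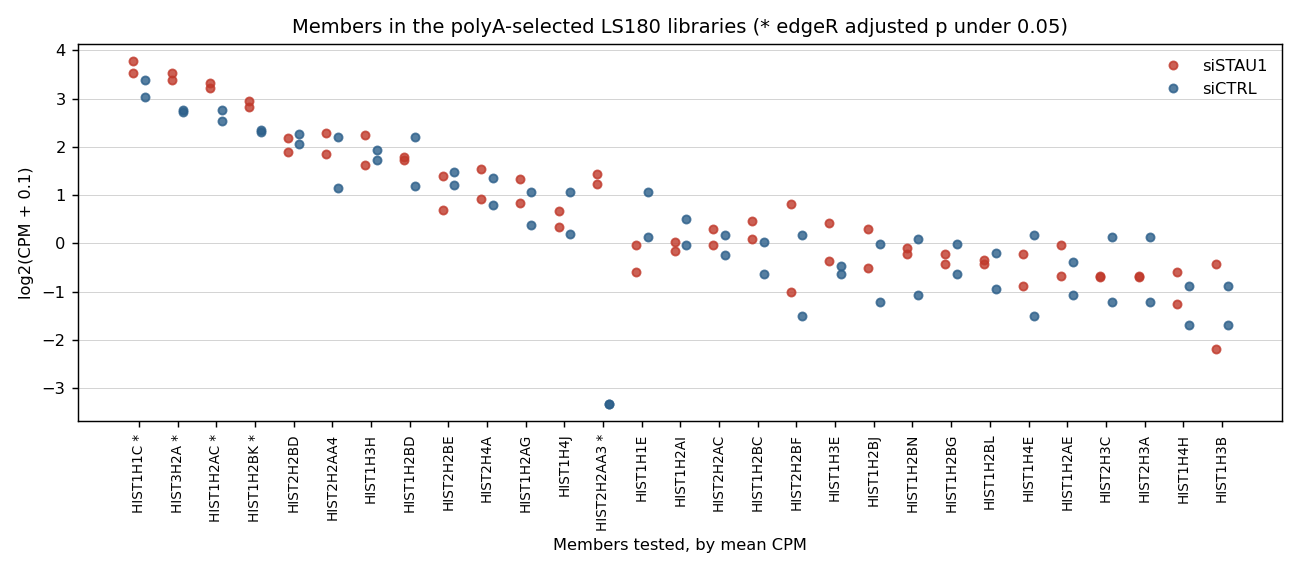
The 29 members tested in poly(A) RNA, as log2(CPM + 0.1), in the siSTAU1 (left of each pair) and siCTRL libraries, 2 each. Asterisks mark edgeR adjusted p under 0.05: HIST3H2A, HIST1H2AC, HIST1H2BK and HIST1H1C are higher with siSTAU1, and HIST2H2AA3 has no count with siCTRL.

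Poly(A) RNA and total RNA ranked the members differently. Per length, HIST1H2BK led the poly(A) libraries with 45.1 ± 4.02 TPM in siSTAU1 and 33.0 ± 1.05 TPM in siCTRL (SD, n = 2 each). HIST1H1C followed with 33.5 ± 3.07 TPM in siSTAU1 and 26.7 ± 4.26 TPM in siCTRL, and HIST3H2A with 18.8 ± 1.93 TPM in siSTAU1 and 12.3 ± 0.141 TPM in siCTRL. H4 genes made up 9.97% of the summed histone TPM with siSTAU1 and 13.4% with siCTRL, against 28.6% in LS180 total RNA at 0 h. Set against 1000 CPM in LS180 total RNA at 0 h, HIST3H2A had 187 CPM in the siCTRL poly(A) libraries, HIST1H2AC 16.2, HIST1H2BK 15.3, HIST3H2BB 8.84 and HIST1H1C 7.79. HIST1H4C had 1.43, rank 25 of 35. The 2 kinds of library differ in kit, transfection and annotation build, and their part in these ratios was not tested. Across the 35 members the ratio and the 4 h change in HCT116 had Pearson r = 0.37 and Spearman rho = 0.38, a description in which HIST1H4C, with the smallest fall, is not among the members high in poly(A) RNA.

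Genes that process, carry or replace these histones and their mRNAs were read beside the members. SLBP, which binds the stem-loop, fell by 0.19 at 4 h in HCT116 and by 0.32 in LS180 (edgeR adjusted p = 0.00139 and 7.04e-06), and had 0.04 with siSTAU1 (0.411). Of 39 genes for histone mRNA processing and decay, 6 were higher and 5 lower at 2 h in HCT116 (15.4% and 12.8%, against 13.8% and 17.1% of all genes) and 6 higher and 10 lower in LS180 (15.4% and 25.6%, against 13.5% and 23.9%). At 4 h, 16 were higher and 10 lower in HCT116 (41% and 25.6%, against 26.2% and 23.7% of all genes), and 12 higher and 14 lower in LS180 (30.8% and 35.9%, against 26.6% and 31.1%). Except for the share higher at 4 h in HCT116, these shares lie near those of all genes. ZNF473 and LSM11, which act with the U7 snRNP in cutting histone pre-mRNA, and NPAT, the coactivator of histone genes, fell at 4 h by 2.18, 1.37 and 1.46 in HCT116 and by 2.93, 2.32 and 1.52 in LS180. The difference between the lines was 0.95 for LSM11 and 0.76 for ZNF473 (edgeR adjusted p = 3.02e-05 and 0.00122), a smaller fall in HCT116. With siSTAU1, 5 of 38 were higher and 19, STAU1 itself among them, lower (13.2% and 50%, against 23% of all genes in each direction). SMG5 and UPF1, factors of nonsense-mediated and histone mRNA decay, fell by 1.23 and 0.63, and PNRC2, which links UPF1 to decapping, rose by 0.44.

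Replication-independent variants come mostly from polyadenylated mRNAs. Of 12, 7 were higher and 1 lower at 4 h in HCT116 (58.3% and 8.33%, against 26.2% and 23.7% of all genes), and 6 higher and 2 lower in LS180 (50% and 16.7%, against 26.6% and 31.1%). H3F3A rose by 0.46 in HCT116 and 0.58 in LS180, and H2AFX, whose mRNA can end at a stem-loop or in a poly(A) tail, fell by 0.76 in HCT116 and 1.15 in LS180. With siSTAU1, 5 of 11 were higher and 2 lower (45.5% and 18.2%, against 23% each way), with H1F0 at -0.48 and H2AFX at 0.36 (edgeR adjusted p = 1.10e-06 and 6.91e-06). At 0 h, 3 were higher and 6 lower in HCT116 than in LS180 (25% and 50%, against 33.7% and 42.6% of all genes), with H2AFJ at -2.0. Of 21 histone chaperones and transcription factors of histone genes, 9 were higher and 7 lower at 4 h in HCT116 (42.9% and 33.3%, beside the same 26.2% and 23.7%) and 9 higher and 8 lower in LS180 (42.9% and 38.1%, beside 26.6% and 31.1%), where HINFP, an activator of H4 genes, fell by 1.55. With siSTAU1, 4 were higher and 12 lower (19% and 57.1%, against 23% each way), among them ATRX at -0.76 and CHAF1A at -0.51.

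The cell cycle lists give the setting of these values. The shares of all genes to set beside them were 26.2% higher and 23.7% lower at 4 h in HCT116, 26.6% and 31.1% in LS180, 33.7% and 42.6% in HCT116 against LS180 at 0 h, and 23% each way with siSTAU1. Of 50 DNA replication genes, 28 were higher and 11 lower at 4 h in HCT116 (56% and 22%) and 17 higher and 18 lower in LS180 (34% and 36%), with CDC25A, an activator of CDK2, at -1.32 and -2.01 in these lines. At 0 h 27 were higher and 9 lower in HCT116 than in LS180 (54% and 18%), while the histone sum was lower. With siSTAU1, 13 were higher and 18 lower (26% and 36%), with RRM2 at 0.51. Of 20 genes of G2 and mitosis, 5 were higher and 3 lower at 4 h in HCT116 (25% and 15%), neither share above that of all genes, and 2 higher and 11 lower in LS180 (10% and 55%). Between the lines at 0 h 12 were higher and 4 lower in HCT116 (60% and 20%), and with siSTAU1 10 were higher and 5 lower (50% and 25%). Of 12 genes of cell cycle exit, 2 were higher and 5 lower at 4 h in HCT116 (16.7% and 41.7%) and 2 higher and 7 lower in LS180 (16.7% and 58.3%). At 0 h 5 were higher and 5 lower in HCT116 than in LS180 (41.7% each way), and with siSTAU1 6 of 10 were higher and 1 lower (60% and 10%), with CDKN1C at 1.33. How far the cell cycle takes part in the histone values was not tested.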

How the data were processed

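RNA-seq was measured in 22 libraries of LS180 and HCT116. Per the labels' protocols, RNA was extracted with the RNeasy Plus Mini Kit, and libraries were made with Illumina Stranded mRNA Prep (siRNA experiment) or Illumina Stranded Total RNA (actinomycin D experiment). The submitters' processing notes name cutadapt, STAR 2.7 and RSEM 1.3.1, with hg38 for the siRNA tables and hg19 for the others. The authors deposited RSEM expected counts per gene, which share reads between near-identical copies, and TPM, which divides them by transcript length. The annotation release is not given in the sources used here.

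Expected counts were rounded to whole numbers. Each experiment was fitted on its whole table with edgeR 4.0.16 (R 4.3.3): filterByExpr, TMM, the quasi-likelihood test and Benjamini-Hochberg adjustment over all genes tested, with a threshold of 0.05. The siRNA fit tested 14073 genes over 4 libraries (2 residual degrees of freedom), and the actinomycin D fit 17256 genes over 18 (12 residual degrees of freedom). The fit was tested on simulated counts. CPM were scaled by TMM, and a group at 0 was set to 3 counts for a bound on a fold. DESeq2 1.42.0, other filters and scalings, an effective length offset, a replicate block and left-out libraries were alternatives. Same-numbered HCT116 libraries deviated together, every correlation being over 0.1. The correlations were 0.735, 0.318 and 0.471 between 0 and 2 h, and 0.533, 0.247 and 0.303 between 0 and 4 h. The main fit did not pair libraries, and a block on the replicate number was run only as an alternative. For libraries 2 and 3 a library of another number correlated higher (up to 0.444 and 0.575 at 2 h, and 0.361 and 0.434 at 4 h), so that library 1 alone stood apart by number.

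Named genes were the 4 highest members per class and experiment by TPM, the 3 largest rises and falls among called members of at least 5 CPM, copy pairs, and the 4 genes of each other list with the smallest adjusted p, with SLBP and STAU1. Other members named were chosen after their values were seen. The members and lists were chosen with earlier results of these data known. Sequences came from GENCODE 29 transcripts (GRCh38) and RefSeq promoters (GRCh38.p14). Correlations and class sums carry no test. Figures were drawn with matplotlib 3.10.9.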

Additional observations from a re-analysis of the deposited data

Results flagged for a closer look

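The change after actinomycin D differed between the 2 lines by a test of the difference itself. At 2 h, 15 members had a lower change in HCT116 than in LS180, against 0.394% of all genes lower and 5.24% higher. HIST2H4A (-1.69), HIST1H2BO (-1.64) and HIST1H4B (-1.59 on the log2 scale) led the members past the threshold. The count of 15 was 6 to 23 with single libraries left out, 7 scaled to ribosomal protein genes, 8 with total library size and 46 without a filter. At 4 h, 28 members had a lower change in HCT116 and 1, HIST1H4I, a higher one, against 1.33% and 12.3% of all genes. HIST2H3C was at -2.56, HIST1H4K at -2.19 and HIST1H2AD at -2.07. The HIST1H4I call was lost in 4 of 22 alternatives, and the count of 28 was 22 to 35 with single libraries left out. The HCT116 and LS180 libraries of a time share no sample, and each line's 0 h libraries enter both of its times.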

How the results depend on the processing

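The falls after actinomycin D kept their direction in both lines under each alternative run, and the counts of members lower stayed within 1.5 times. Of 316 results for single genes, 237 stayed on their side of the threshold under each alternative, and of 5672 recomputed values 174 lost and 132 gained a call. Between the lines at 0 h, scaling to ribosomal protein genes turned HIST1H4C to 0.02, the H2B sum to 0.06 and the H3 sum to 0.05, and moved the sum of all members to -0.07. That scaling shifts the median of all genes to 0.16 in this comparison, to -0.54 in LS180 and to -0.34 in HCT116 at 4 h. The LS180 sum at 4 h became -4.64 under it and -4.3 with total library size.

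Members higher in HCT116 than LS180 at 0 h numbered 14 without a filter and 4 to 7 with single libraries left out, and members lower 15 when 1 CPM was required throughout a group. With siSTAU1, members lower numbered 1 under that filter and 0 to 1 with libraries left out. In HCT116 at 4 h, members higher numbered 0 with the length offset, total library size, ribosomal protein scaling or without the HCT116 libraries numbered 1, and 0 to 1 with single libraries left out. For the 2 h line difference, no filter gave 46 lower and 1 higher, total library size gave 8 lower, ribosomal protein scaling 7 lower, leaving out the HCT116 libraries numbered 1 33 lower, and leaving out single libraries 6 to 23. For the 4 h difference, no filter gave 44 lower and single libraries left out 22 to 35. Members higher numbered 2 by DESeq2, 0 with the 1 CPM filter, without the HCT116 libraries numbered 1, or with libraries 2 and 3 of LS180 at 4 h left out, and 0 to 1 with single libraries left out. The cause of these shifts was not tested.

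The replicate block left the counts at 5 higher with siSTAU1, 62 lower in LS180, and 54 lower at 2 h and 55 at 4 h in HCT116. It gave 6 higher and 28 lower between the lines, and 19 and 33 lower for the line differences at 2 and 4 h. Blocked within each line, an alternative added after the data were seen, they were 15 and 32. Same-numbered libraries did not deviate together in the siRNA experiment (-0.024), in LS180 (-0.222 to 0.274) or between the lines (-0.19 to -0.038). Depth limits 6 of the 64 members in HCT116, which had at most 3 counts in both groups compared.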
